A study of Homo sapiens with 24 samples.

Results

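The MYC-antibody libraries of clone TB were set against those of clone T, 6 of the 24 CUT&RUN libraries of the series. CUT&RUN is an assay in which an antibody tethers a nuclease to chromatin and the DNA released around the bound protein is sequenced. The established human erythroid progenitor line HUDEP-2 was edited to give 3 clones, each of them a single line expanded without further treatment. In clone TB, 3 MYC libraries were made from cells in which both TR4 and BCL11A carry MYC epitopes, TR4 together with FLAG and BCL11A together with HA. In clone T, 3 MYC libraries were made from cells in which TR4 alone carries the FLAG and MYC epitopes. The MYC antibody can therefore report 2 tagged proteins in clone TB and 1 in clone T. Clone B, in which BCL11A alone carries HA and MYC epitopes, was used only for its HA and MYC libraries.

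Peaks of all libraries were joined when at least 1 base was in common. Of the 79570 regions so formed, the 7349 that overlapped an IgG peak were set aside. A region counted as a region of a group when at least 2 of its 3 libraries had a peak there. Of the 72221 regions left, 20429 were MYC regions of clone TB (28.3%) and 9608 were MYC regions of clone T (13.3%). Those of clone TB and not of clone T are called gained (11888 regions, 16.5%), those of both clones common (8541, 11.8%), and those of clone T and not of clone TB lost (1067, 1.48%). The question was whether the gained regions are places where the HA antibody, for which BCL11A is the only tagged protein, also gave peaks. The HA and TR4-antibody libraries decided no region's class, though their peaks took part in the merging. With the MYC libraries of clones TB and T merged without them, 12195 regions were gained. Clone T MYC peaks, from cells in which TR4 is the only tagged protein, did decide the class. The TR4-antibody shares of the classes are therefore not independent of how the classes were made.

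TR4, encoded by NR2C2, is an orphan nuclear receptor that pairs with TR2, encoded by NR2C1, on direct repeats of the sequence AGGTCA. BCL11A is a zinc finger repressor that silences the fetal γ-globin genes in adult red cells, recognises the sequence TGACCA and recruits the NuRD corepressor complex. Both proteins are known repressors of fetal globin. GATAAG is the sequence recognised by GATA1, the master regulator of erythroid genes. The MYC epitope is a short stretch of the human MYC protein. The series holds no MYC library of cells without a tag, so what else the MYC antibody binds was not tested.

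The 7 promoter stretches printed here lie under MYC peaks of the 2 main classes. They are examples chosen after their values and letters were seen, to show the letters described, and are not typical of their class. They are from RefSeq, build GRCh38.p14, cover 150 bases each, run 5′ to 3′ along the gene's strand and lie around the MYC summits of clone TB. Capitals mark the half-site AGGTCA and its variant GGGTCA, the BCL11A letters TGACCA and the GATA1 letters GATAAG, each on either strand, and positions are counted from the start site.
The first 3 lay in gained regions, at chr16:165851-166000 (plus strand) for HBM, chr2:119223696-119223845 (plus) for STEAP3 and chr6:34426163-34426312 (minus) for RPS10.
HBM: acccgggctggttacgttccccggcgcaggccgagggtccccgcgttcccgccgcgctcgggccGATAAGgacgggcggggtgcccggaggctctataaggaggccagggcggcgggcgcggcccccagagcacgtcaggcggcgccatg
STEAP3: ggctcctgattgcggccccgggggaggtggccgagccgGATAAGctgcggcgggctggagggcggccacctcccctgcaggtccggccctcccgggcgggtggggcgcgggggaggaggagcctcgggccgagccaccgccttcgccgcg
RPS10: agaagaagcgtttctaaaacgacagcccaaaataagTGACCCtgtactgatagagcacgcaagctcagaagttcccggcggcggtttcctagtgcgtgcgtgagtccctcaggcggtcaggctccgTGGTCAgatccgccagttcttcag
The other 4 lay in common regions, at chr18:56651568-56651717 (plus) for WDR7, chr10:118046892-118047041 (minus) for RAB11FIP2, chr1:155911300-155911449 (minus) for RIT1 and chr16:30699071-30699220 (plus) for SRCAP.
WDR7: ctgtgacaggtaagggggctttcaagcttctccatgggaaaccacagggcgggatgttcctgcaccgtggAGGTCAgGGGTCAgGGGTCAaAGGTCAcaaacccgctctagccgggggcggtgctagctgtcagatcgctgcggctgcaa
RAB11FIP2: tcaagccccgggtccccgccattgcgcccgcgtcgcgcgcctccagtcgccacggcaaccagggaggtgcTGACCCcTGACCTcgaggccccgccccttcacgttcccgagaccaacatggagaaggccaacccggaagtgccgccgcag
RIT1: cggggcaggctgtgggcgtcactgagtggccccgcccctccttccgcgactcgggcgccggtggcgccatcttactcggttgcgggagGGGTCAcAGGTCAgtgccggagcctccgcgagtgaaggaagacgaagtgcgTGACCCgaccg
SRCAP: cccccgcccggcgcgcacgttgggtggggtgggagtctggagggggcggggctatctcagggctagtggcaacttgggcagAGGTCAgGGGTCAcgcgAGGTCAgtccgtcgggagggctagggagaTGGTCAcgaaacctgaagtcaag

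The 4 common promoters, chosen for it, held head-to-tail copies of AGGTCA or GGGTCA with 1 base between them. At WDR7, a gene for a WD-repeat protein, 4 such copies began at -59, -52, -45 and -38, and the summit of every one of the 6 MYC libraries lay at -54. The HA summits at WDR7 lay elsewhere, between -500 and -444 in the 5 HA libraries with a peak. At RAB11FIP2, which encodes an effector of the recycling GTPase RAB11, copies began at -30 and -23, and the MYC summits lay between -15 and -12 in clone TB and between -23 and -19 in clone T. At RIT1, a RAS-like GTPase gene, the copies began at -12 and -5, with MYC summits from -7 to 4 in clone TB and from -7 to -3 in clone T. At SRCAP, the ATPase gene of a chromatin remodelling complex, they began at -19 and -12, with MYC summits from -14 to -10 in clone TB and from -10 to -2 in clone T, and TGACCA on the minus strand began at 27.

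Of the 3 promoters in gained regions, HBM and STEAP3 are shown for GATAAG and RPS10 for TGACCA. At HBM, the globin gene for the mu chain, GATAAG began at -63, and the clone TB MYC summits lay at -52, -57 and -21. At STEAP3, the ferrireductase gene of the transferrin cycle, GATAAG began at -100, and the clone TB MYC summits lay at -63, -63 and -93. At RPS10, a gene of the small ribosomal subunit, TGACCA on the minus strand began at -117 and GGGTCA on the minus strand at -207, while the clone TB MYC summits lay at -177, -167 and -168 and the HA summits of both clones between -181 and -164. A match of letters is a description and not a bound site.

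Over the promoter windows of 13820 protein-coding genes (300 bases each, 250 of them before the start site), the repeat with 1 base between was rare. It occurred in 10 windows, searched on both strands for any pairing of AGGTCA and GGGTCA. Of these, 7 overlapped a common region, none a gained region only, and 3 no MYC region, while 3512 of all 13820 windows overlapped a common region. WDR7 is not among these windows, since the start site used for it is not the end of its gene record. All 7 (RIT1, ACBD3, TMA7, NOL7, RAB11FIP2, PAM16 and SRCAP) had a peak in every MYC library of both clones and in every TR4-antibody library. HA peaks at them were uneven, from 3 of 3 clone TB libraries at TMA7, NOL7 and PAM16 to none of 3 at ACBD3 and RAB11FIP2. AGGTCA alone was in 7.10% of the 2154 windows with a gained and no common region, 11.6% of the 3512 with a common region and 11.7% of all windows. For AGGTCA or GGGTCA these shares were 17.8%, 27.2% and 23.9%. For TGACCA these shares were 7.66%, 8.43% and 9.38%, and for GATAAG 2.92%, 3.50% and 5.06%. The median GC content was 67% in the gained windows, 65.3% in the common windows and 62.7% in all windows.

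The MYC lists of clone TB were longer. They held 25738, 24526 and 20928 peaks, a mean of 23731 ± 2502 (SD, n = 3), against 13205, 14263 and 4621 peaks in clone T, a mean of 10696 ± 5288 (SD, n = 3). All 3 clone TB lists were longer than all 3 clone T lists, and the third clone T list stood apart as the shortest of the 21 target lists. The difference of 13034 peaks gave p = 0.1 in a two-sided exact permutation test, which is the smallest p that 3 against 3 allows. IgG gave 2036 peaks in clone TB, 2244 in clone T and 4828 in clone B. Regions with an IgG peak made up 1.09% to 1.25% of the regions of a clone TB MYC list and 1.19% to 2.75% of a clone T one. Sequencing depth is unknown, since the lists carry no read counts, and the part of depth in these list lengths was not tested. Whether the 3 libraries of a group were separate cultures is not stated in the labels; a p-value here speaks of the spread among libraries alone, and that spread may be technical.

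The overlap of the 2 MYC sets was lopsided. Common regions were 41.8% of the clone TB regions and 88.9% of the clone T regions. Of the gained regions, 8937 had no peak in any clone T library and 2951 had a peak in 1. Of the lost regions, 578 had no peak in any clone TB library. The Jaccard index, the shared regions of 2 libraries over their union, averaged 0.575 between clone TB libraries, 0.373 between clone T libraries and 0.307 between a clone TB and a clone T library. The mean within clones exceeded that between clones by 0.166 (exact permutation p = 0.1, the smallest possible here), and by 0.0441 (p = 0.5) when each clone TB list was limited to the length of the clone T list of the same number. The count of gained regions was 7727 without the first and 7884 without the second clone TB library, both remaining libraries being required. The count of lost regions was 1838 and 1819 without those 2 libraries, and 112 and 98 without the first and the second clone T library.

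**Figure D1:**
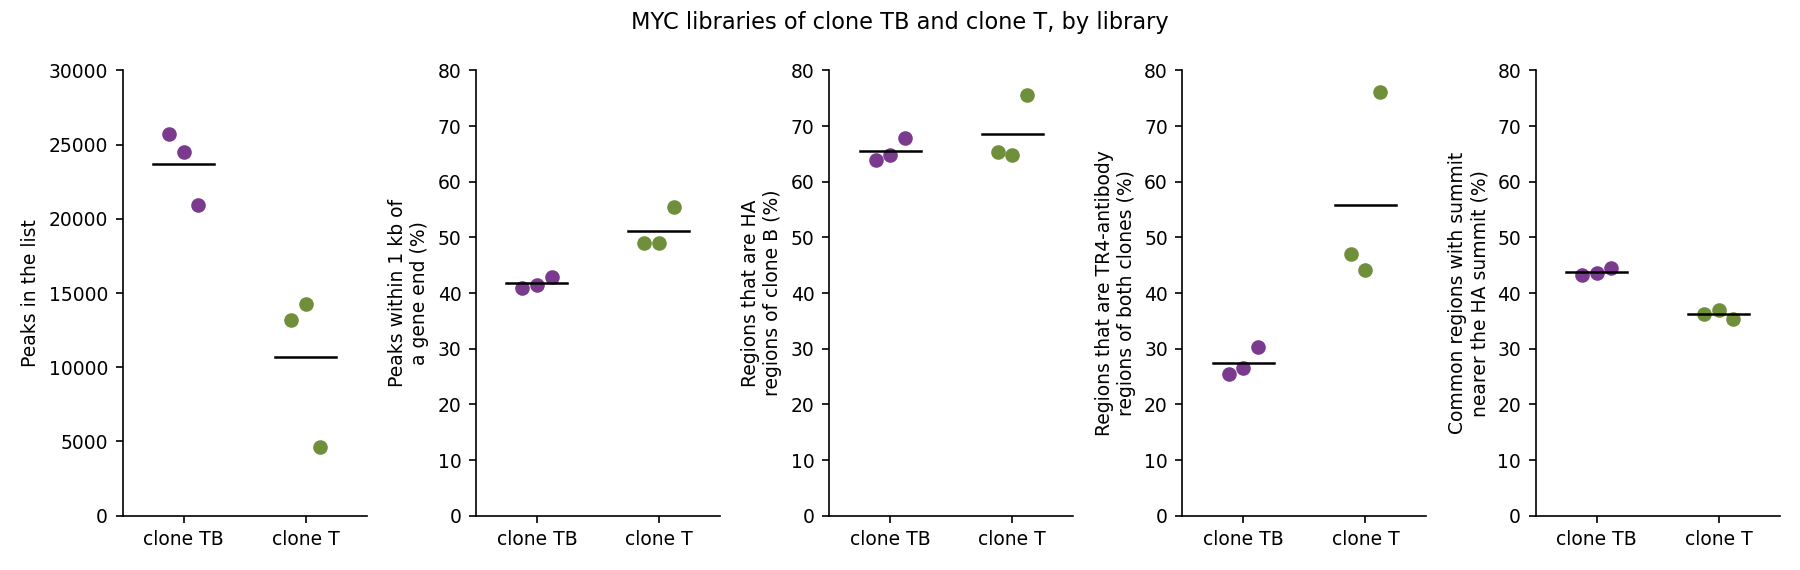
Each point is 1 MYC library, clone TB on the left and clone T on the right of each panel, and the bar is the mean of 3. The panels give the number of peaks, the percentage of peaks within 1 kb of a gene end, the percentages of a library's regions that are HA regions of clone B or TR4-antibody regions of both clones, and the percentage of common regions where the MYC summit lay nearer the HA than the TR4-antibody summit. The clone TB lists hold 20928 to 25738 peaks and the clone T lists 4621 to 14263.

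Most gained regions were HA regions. Of the 11888 gained regions, 70.7% were HA regions of clone TB (exact binomial 95% interval 69.8% to 71.5%, counting error only), 67.2% were HA regions of clone B and 72.3% were MYC regions of clone B, the clone whose TR4 carries no tag. TR4-antibody regions were far fewer among them, 14.3% in clone TB and 6.90% in clone T. Among all 72221 regions the shares were 24.9% for HA in clone TB, 27.4% for HA in clone B, 30.2% for MYC in clone B, 11.7% for the TR4 antibody in clone TB and 11.1% for it in clone T. Among the 37143 regions with a peak in at least 2 target libraries these backgrounds were 48.3%, 53.4%, 58.7%, 22.8% and 21.6% in the same order. The gained regions thus stood above both backgrounds for HA and below the second for the TR4 antibody.

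Common regions were also HA regions, so HA alone did not set the gained ones apart. Of the 8541 common regions, 78.5% were HA regions of clone TB and 81.9% of clone B, while 75.7% and 77.8% were TR4-antibody regions of clones TB and T. Lost regions were HA regions in 8.62% of cases in clone TB and 20.1% in clone B, and TR4-antibody regions in 6.75% in clone TB and 31.3% in clone T. Gained regions with no HA peak in any of the 6 HA libraries numbered 812 (6.83%), and those with no TR4-antibody peak in any of 6 numbered 6999 (58.9%). Over all 72221 regions these shares were 34.7% and 71.6%. Over the 37143 regions with a peak in at least 2 target libraries they were 11.8% and 56.0%. The gained share without a TR4-antibody peak was thus near the second background. Among common regions, 638 (7.47%) had no HA peak and 227 (2.66%) no TR4-antibody peak.

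Library by library, the share of gained regions with a peak was 75.4%, 77.6% and 45.5% for HA in clone TB and 73.2%, 75.5% and 36.2% for HA in clone B. For the TR4 antibody it was 20.4%, 21.7% and 6.69% in clone TB and 7.89%, 24.5% and 1.81% in clone T. Every HA library lay above every TR4-antibody library, the lowest HA value being 36.2% and the highest TR4-antibody value 24.5%. The means were 63.9% ± 18.2 for HA and 13.8% ± 9.5 for the TR4 antibody (SD, n = 6 each). They differed by 50.1 percentage points (two-sided exact permutation p = 0.00216, the smallest that 6 against 6 allows, and 0.00974 after Benjamini-Hochberg adjustment over 9 tests). The third library of each group was the shortest list of its group and had its lowest share.

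HA lists were also longer, with 12284 to 29178 peaks against 5602 to 14924 in TR4-antibody lists, so each library's share of gained regions was set against its own share of common regions. The log2 ratio of gained over common was -0.28 ± 0.22 for HA and -2.80 ± 1.11 for the TR4 antibody (SD, n = 6 each), a difference of 2.53 (exact permutation p = 0.00216, adjusted 0.00974). The TR4-antibody side of this ratio, and of the shares above, was partly fixed by the classes. Common regions had to be MYC regions of clone T, where TR4 is the only tagged protein, and gained regions could not be. The tests cannot separate that from a higher HA share. With every target list limited to the length of the shortest, 1534 gained regions were left, of which 79.7% were HA regions of clone TB. There the HA share exceeded the TR4-antibody share by 44.4 percentage points and the log2 ratio by 2.32 (exact permutation p = 0.00216 for both). For lost over common the ratio was -2.56 for HA and -2.46 for the TR4 antibody, and the difference of -0.10 did not pass (exact permutation p = 0.883).

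**Figure D2:**
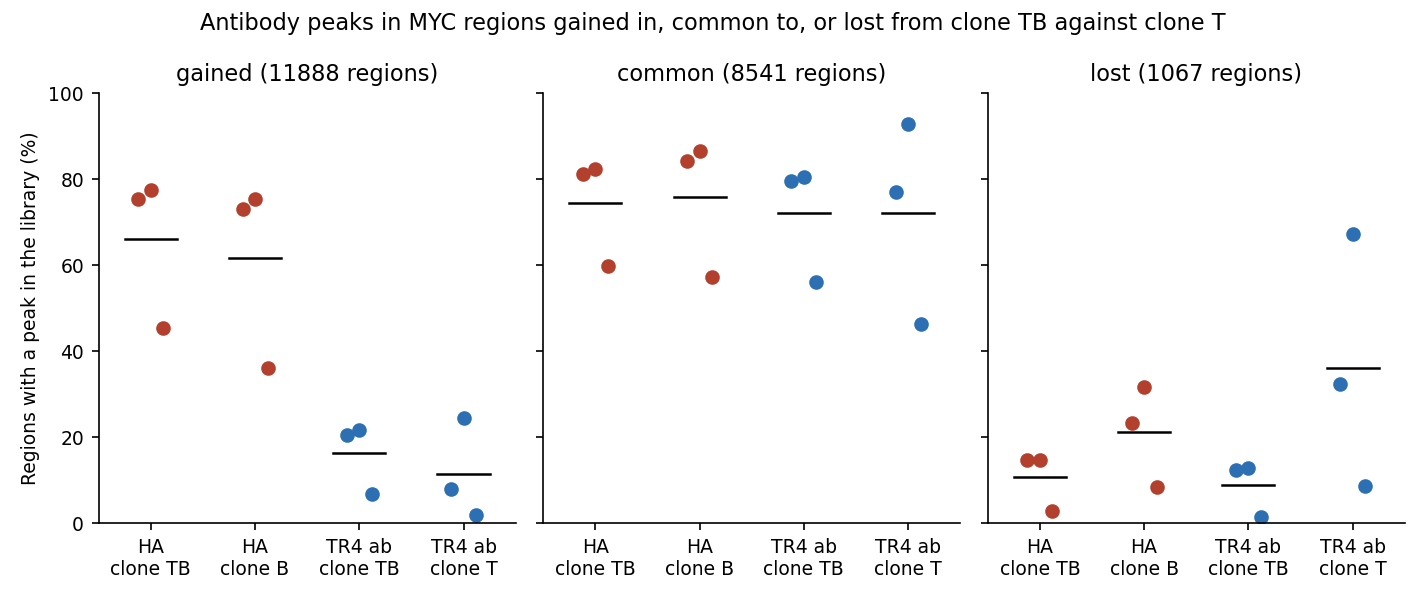
Each point is 1 library and each bar the mean of 3, with HA libraries in red and TR4-antibody libraries (TR4 ab) in blue. The vertical axis is the percentage of the class with a peak in that library. In gained regions the HA libraries lie between 36.2% and 77.6% and the TR4-antibody libraries between 1.81% and 24.5%, whereas in common regions the 2 antibodies overlap.

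In percentage points the HA excess was close in size inside clone TB and between the single-tag clones. HA exceeded the TR4 antibody by 49.9 percentage points in clone TB and by 50.2 points for clone B against clone T (3 libraries each, exact permutation p = 0.1 for both, the smallest possible). The first minus the second of these was -0.29 points (permutation p = 0.975). As the log2 ratio of gained over common, the excess was 2.11 in clone TB and 2.94 for clone B against clone T. The first minus the second was -0.83 (permutation p = 0.49). With 3 libraries a group, these tests cannot show that the sizes are equal. Split by the antibodies of clone TB, 7067 gained regions were HA regions only (59.4%), 1335 both (11.2%), 366 TR4-antibody regions only (3.08%) and 3120 neither (26.2%). For common regions these shares were 15.9%, 62.6%, 13.1% and 8.37%. Over the 37143 regions with a peak in at least 2 target libraries they were 30.3%, 18.1%, 4.71% and 46.9%. No peak outside the MYC libraries of clones TB and T was found at 323 gained regions (2.72%) and 150 lost regions (14.1%). That share was 1.67% of the same 37143 regions and 11.7% of all regions without an IgG peak.

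Gained regions were weaker and narrower than common ones. The fold of a peak is the authors' value, used here to rank peaks within a list. In the 3 clone TB libraries the median gained peak stood at percentiles 46.6, 45.1 and 45.0 of its list by fold, and the median common peak at 78.7, 77.9 and 74.5. In the HA lists of clone TB the gained peaks stood at 57.7, 60.9 and 58.9 and the common peaks at 73.1, 75.6 and 67.9. Median width was 238 bases for gained, 343 for common and 169 for lost regions. Peaks seen in only 1 clone T library at gained regions were low in their lists, with medians of 27.3, 28.0 and 18.3.

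The HA share followed the strength of the MYC peak. Clone TB regions were divided in 5 equal parts by mean percentile of fold. Among gained regions, HA regions of clone TB made up 52.6% of the weakest part, then 65.4%, 80.2%, 91.2% and 95.0% of the strongest. TR4-antibody regions of clone TB made up 4.44%, 8.59%, 16.2%, 30.1% and 43.4% of the same parts. Among common regions the HA share was 47.8% in the weakest and 88.9% in the strongest part, and the TR4-antibody share 26.2% and 95.8%. Gained regions were 84.3% of the weakest part of all clone TB regions and 14.7% of the strongest.

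**Figure D3:**
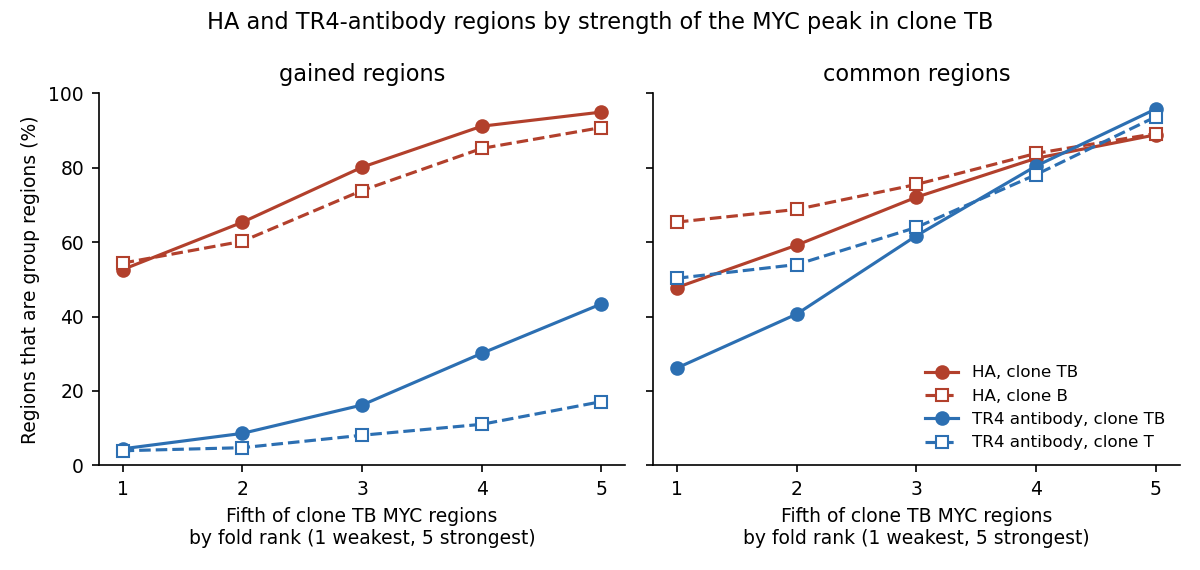
The horizontal axis is the fifth of the clone TB MYC regions by fold rank and the vertical axis the percentage that are group regions of each antibody. In gained regions the HA share of clone TB runs from 52.6% to 95.0% and the TR4-antibody share of clone TB from 4.44% to 43.4%; in the strongest common regions both reach 88.9% or more.

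Within common regions the MYC summits of clone TB lay nearer the HA summits more often than those of clone T. The MYC summit was nearer the median HA summit of clone B than the median TR4-antibody summit in 43.2%, 43.6% and 44.5% of untied regions in clone TB and in 36.2%, 37.0% and 35.3% in clone T. The groups did not overlap, the means being 43.8% ± 0.69 and 36.2% ± 0.84 (SD, n = 3 each; exact permutation p = 0.1, the smallest possible, adjusted 0.129). The difference of 7.57 percentage points was 3.63 without clone T library 1 and 4.65 without clone T library 2. HA and TR4-antibody summits of a region were a median of 24 bases apart. In both clones the MYC summits were nearer the TR4-antibody summit in most untied common regions. That reference pooled the TR4-antibody libraries of clones TB and T, while the HA reference came from clone B alone. The 2 sides are therefore not measured alike.

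Gained regions lay away from gene ends more than common ones. Gene position is given by either end of a RefSeq gene record, and 35.0% of gained, 58.8% of common and 30.1% of lost regions lay within 1 kb of one, against 24.9% of all regions. By library, 41.7% ± 0.96 of clone TB MYC peaks and 51.2% ± 3.70 of clone T MYC peaks lay there (SD, n = 3 each; exact permutation p = 0.1). That difference turned to 1.66 percentage points higher in clone TB (exact permutation p = 0.6) when all lists had equal length. TR4-antibody regions of both clones made up 27.4% ± 2.54 of the regions in a clone TB list and 55.8% ± 17.6 in a clone T list (exact permutation p = 0.1), which came to a difference of -2.75 points with equal lists (exact permutation p = 0.4). HA regions of clone B made up 65.5% ± 2.14 and 68.6% ± 6.04 (exact permutation p = 0.5), and with equal lists the clone TB share was 19.2 points higher (exact permutation p = 0.1).

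The β-globin locus, on chromosome 11 of GRCh38, held 10 gained and 2 common regions and no lost one. All 10 gained regions were HA regions of clone TB, 1 was a TR4-antibody region of clone TB, and 9 had no peak in any clone T MYC library. HBG1 and HBG2 encode the fetal γ-globin chains. At the start of HBG1 (chr11:5249725-5250045), MYC folds were 9.2, 12.1 and 6.1 in clone TB with no peak in any clone T library, and HA folds in clone TB were 17.2, 19.8 and 18.4. At the start of HBG2 (chr11:5254699-5254970), MYC folds were 9.45, 11.8 and 7.19 in clone TB with no clone T peak, and HA folds in clone TB were 25.9, 17.7 and 16. Both regions were without a TR4-antibody peak in all 6 libraries, and 1 of 3 HA libraries of clone B had a peak at each. The clone TB MYC summits lay 51 to 136 bases beyond the higher-coordinate end of the HBG1 record and 51 to 55 bases beyond that of HBG2. These 2 genes are near-identical copies, and the sources used here do not say how reads matching both were placed.

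At HBB, the adult β-globin gene, 2 gained regions were found. The one over its upstream end (chr11:5226533-5227262) had MYC folds of 6.92, 7.73 and 8.55 in clone TB and no peak in clone T, with HA folds of 11.1, 4.46 and 8.00 in clone TB and 14.8, 24.9 and 10.5 in clone B. The pseudogene HBBP1 and the noncoding RNA gene BGLT3, which lie between the adult and fetal genes, shared a gained region (chr11:5243518-5243928) with MYC folds of 9.78, 11.6 and 13.9 in clone TB and none in clone T. No MYC region of either clone lay within 1 kb of HBD, the minor adult δ-globin gene, or HBE1, the embryonic ε-globin gene.

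Towards the locus control region, the enhancer cluster that drives these genes, the MYC regions of clone T were the 2 common ones. The stronger of them (chr11:5280584-5281046) had MYC folds of 42.6, 44.7 and 46.5 in clone TB and 13.5, 18.3 and 7.58 in clone T. Every MYC library of both clones had a peak there. A gained region nearer the genes (chr11:5275788-5276169) had MYC folds of 20.7, 17.9 and 20.3 in clone TB and a single clone T peak with a fold of 7.0.

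**Figure D4:**
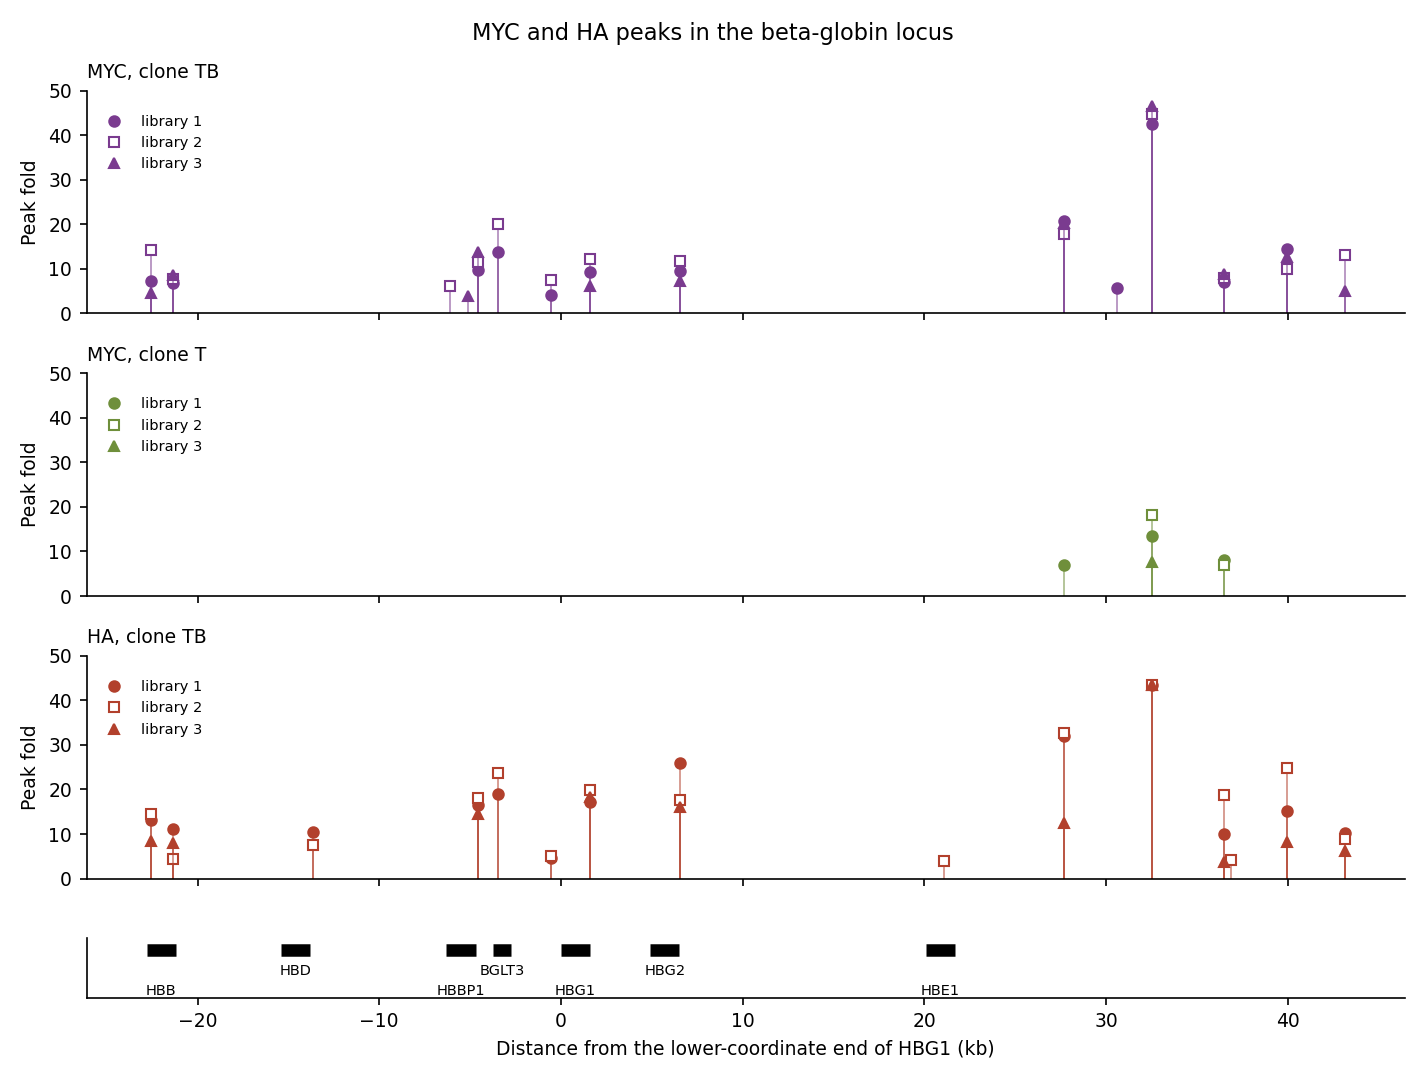
MYC peaks of clone TB (top), MYC peaks of clone T and HA peaks of clone TB are drawn by their fold at the middle of each region, with 1 symbol per library and gene records as black bars. The horizontal axis is the distance in kb from the lower-coordinate end of HBG1. Peaks at HBB, HBBP1, BGLT3, HBG1 and HBG2 are seen with MYC and HA in clone TB and not with MYC in clone T, whose peaks lie upstream of HBE1.

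The α-globin locus on chromosome 16 held 7 gained and 4 common regions. Of the 7 gained regions, 6 were HA regions of clone TB, none was a TR4-antibody region, and none had a clone T MYC peak. HBZ, the embryonic ζ-globin gene (chr16:152323-152742), had MYC folds of 15, 12.1 and 21.6 in clone TB and no clone T peak. HBM (chr16:165864-166086) had 16.3, 14 and 8.87 in clone TB and none in clone T. HBA2, an adult α-globin gene (chr16:172487-173069), had 10.6, 13.5 and 10.2 in clone TB and none in clone T. Its near-identical copy HBA1 (chr16:176330-176873) was common, with 19.8, 14.5 and 12.8 in clone TB and peaks of 7.38 and 20.5 in the first 2 clone T libraries only. Here too the sources do not say how reads matching both copies were placed, so their different classes may not separate the 2 genes.

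Over all 20037 protein-coding genes, 21.5% had a gained region within 1 kb of a gene end, 26.2% a common one and 1.9% a lost one, and 16.8% had a gained and no common region. Of the globin genes, 6 of 10 protein-coding members had a gained region and 1 a common one. Red cell membrane and blood group genes had 22 of 37 members with a gained region and 9 with a common one. Erythroid transcription factors had 14 of 24 gained and 10 common, and genes of erythropoietin and KIT signalling 14 of 23 gained and 13 common. Genes with a role in NuRD and other corepressors had 11 of 28 gained and 12 common, and regulators of fetal globin 13 of 30 gained and 18 common. The gained region was an HA region of clone TB at 6 of 6 globin genes, 21 of 22 membrane genes, 13 of 14 erythroid factors and 13 of 13 fetal globin regulators. It was one at 11 of 14 genes of erythropoietin and KIT signalling, 9 of 11 corepressor genes, and at 3251 of 4298 genes with a gained region in all.

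The other lists divided as follows. Oxidative phosphorylation genes had 22 of 76 gained and 50 common, and HA regions lay at 10 of the 22. Cytosolic ribosomal protein genes had 28 of 79 gained and 44 common, heme and iron genes 14 of 33 gained and 21 common, cell cycle genes 14 of 30 gained and 14 common, and nucleolar MYC target genes 10 of 31 gained and 20 common. Nuclear receptor genes had 12 of 48 gained and 8 common, and megakaryocyte and platelet genes 5 of 22 gained and 1 common. Of the lymphoid and myeloid marker genes 2 of 28 had a gained region and 1 a common one, and of the olfactory receptor genes, 392 in all, 2 had a gained region and none a common one. The gained region was an HA region of clone TB at 26 of 28 ribosomal protein genes, 13 of 14 heme and iron genes, 13 of 14 cell cycle genes, 6 of 10 nucleolar genes and 9 of 12 nuclear receptor genes.

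**Figure D5:**
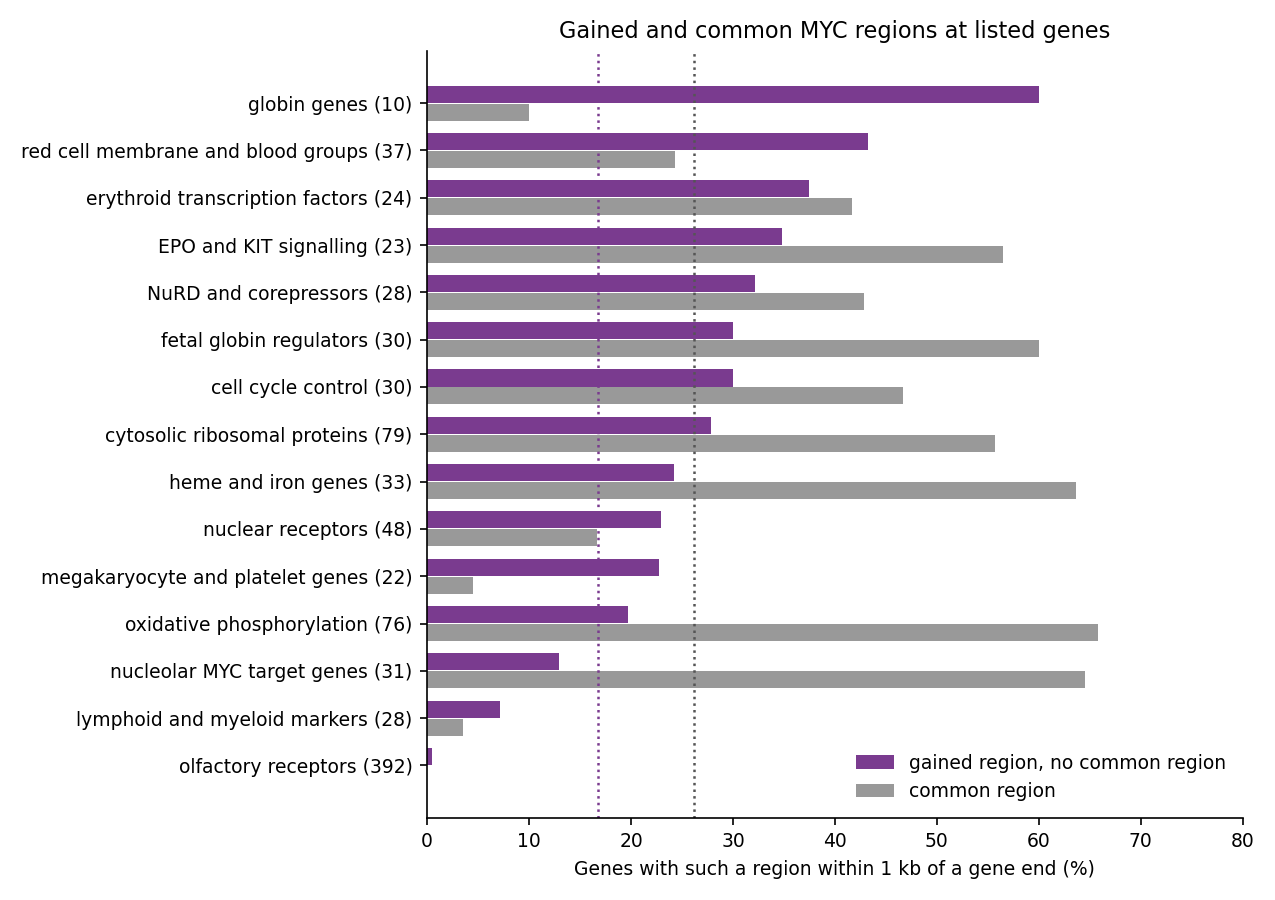
Bars give the percentage of each list's genes with a gained and no common region (purple) or with a common region (grey) within 1 kb of a gene end, with the number of genes in brackets. Dotted lines mark the same over all protein-coding genes, 16.8% in purple and 26.2% in grey. Globin genes and red cell membrane genes have the longest purple bars, and oxidative phosphorylation genes the longest grey bar.

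The genes named next were taken because they had a gained region, in order of the number of HA libraries with a peak in it, so their values are descriptions. From the fetal globin regulators and erythroid factors, GATA1 (chrX:48785852-48786644) had MYC folds of 12.5, 10.1 and 8.81 in clone TB and no clone T peak, with HA peaks in all 6 HA libraries and none with the TR4 antibody. A region at the end of NFIX, a repressor of fetal globin, and next to LYL1, a relative of the erythroid factor TAL1 (chr19:13097927-13098849), had MYC folds of 31.2, 21.2 and 23 in clone TB and no clone T peak, again with 6 HA and no TR4-antibody peaks. A common region also lay within 1 kb of an end of LYL1. KLF1, the activator of adult β-globin (chr19:12887528-12887772), had 16, 14.7 and 8.58 in clone TB and none in clone T, and also had a common region within 1 kb. FOXO3, a factor of late erythroid maturation (chr6:108558950-108559843), had 40.3, 38.4 and 21.6 in clone TB and 1 clone T peak of 7.52.

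The genes of the 2 tagged proteins lay in common regions. NR2C2, the gene of TR4 itself, had MYC folds of 107, 99.2 and 103 in clone TB and 321, 365 and 161 in clone T at chr3:14947090-14947713. Its other common region (chr3:14947833-14948702) had 79.5, 141 and 109 in clone TB and 39.5, 68.6 and 34.6 in clone T. NR2C1, its TR2 partner, had at chr12:95072503-95073183 MYC folds of 93.0, 87.6 and 55.2 in clone TB and 117, 138 and 60.2 in clone T, with no HA peak in any of 6 libraries. Its other common region (chr12:95073265-95073838) had MYC folds of 157, 179 and 112 in clone TB and 192, 87.8 and 40.2 in clone T. HA peaks were there in 4 of 6 libraries, with folds of 9.16 and 7.67 in clone TB and 12.7 and 18.7 in clone B. BCL11A (chr2:60553538-60553787) had 14.5, 13.6 and 11.1 in clone TB and 6.48 and 7.83 in the first 2 clone T libraries. ZBTB7A, a second major repressor of fetal globin, had common regions at its upstream end. LIN28B, a fetal-stage RNA-binding gene, had no MYC region within 1 kb of its ends.

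Corepressor, signalling, red cell and platelet genes were chosen in the same way. MBD3, a NuRD subunit (chr19:1592833-1593100), had MYC folds of 31.1, 25.8 and 22.2 in clone TB and 1 clone T peak of 4.5. TR4-antibody peaks were there in 5 of 6 libraries, with folds of 14.7 and 10 in clone TB and 3.89, 9.68 and 7 in clone T. JAK2, the kinase of the erythropoietin receptor (chr9:4985054-4985401), had 17.8, 12.6 and 13.9 in clone TB and none in clone T. A common region also lay within 1 kb of an end of JAK2. SOCS3, a feedback inhibitor of that pathway (chr17:78360058-78360458), had 17.1, 17.5 and 20.7 in clone TB and none in clone T, with TR4-antibody peaks in all 3 libraries of clone TB and none of clone T. RHCE, a Rh blood group gene with the close copy RHD (chr1:25430669-25430998), had 24.7, 17 and 24.1 in clone TB and 1 clone T peak of 4.31. TMEM14C, a mitochondrial transporter needed for heme synthesis (chr6:10722653-10723212), had 15.5, 16.8 and 14.4 in clone TB and none in clone T. GP1BB, a platelet glycoprotein gene (chr22:19723305-19723948), had 22.6, 21.4 and 21.5 in clone TB and none in clone T, with peaks in all 6 HA libraries and in no TR4-antibody library.

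Of the 8 strongest gained regions with no clone T peak, 7 had peaks in all 6 HA libraries. That share was 21.4% of all gained regions with no clone T peak, 47.0% of common regions and 9.60% of all regions without an IgG peak. The HA share rose with the strength of the MYC peak in gained and common regions alike, so strong regions are not typical. The region inside GSE1, a gene of a corepressor-associated protein (chr16:85381975-85382492), had MYC folds of 109, 103 and 74.1 in clone TB, HA folds of 125, 133 and 52.3 in clone TB and of 120, 77.1 and 44.5 in clone B, and 1 TR4-antibody peak of 5.25. Regions inside HSPG2, RREB1 and SLC37A1, 20034 to 57292 bases from the nearest gene end, had a peak in at most 1 TR4-antibody library. The region with the highest rank differed. It lay 107 bases from NOVA1, a neuronal splicing factor gene (chr14:26598140-26598739), with MYC folds of 126, 129 and 107 and TR4-antibody folds of 71.7, 68.8 and 76.6 in clone TB. It had no peak in any MYC or TR4-antibody library of clone T or any library of clone B, and HA peaks of 9.67 and 12.1 in clone TB.

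Common regions of the highest rank included SMARCD2 and TOMM70. SMARCD2, a chromatin remodelling subunit gene (chr17:63842601-63843515), had MYC folds of 371, 404 and 346 in clone TB and 619, 660 and 299 in clone T, HA folds from 5.0 to 17.7, and TR4-antibody folds from 223 to 496. TOMM70, a gene of the mitochondrial import machinery (chr3:100400940-100402125), had 221, 210 and 174 in clone TB and 562, 657 and 239 in clone T. RAB11FIP2 (chr10:118046575-118047139) had 258, 291 and 227 in clone TB and 94.1, 92.3 and 36.5 in clone T, with no HA peak in clone TB.

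Lost regions were few and low in rank, with median clone T peaks at percentiles 42.7, 46.6 and 33.1 of their lists against 64.4, 66.5 and 58.2 for common peaks. The log2 ratio of lost over common was -3.54 ± 1.54 for the TR4 antibody in clone TB and -1.38 ± 0.98 in clone T (SD, n = 3 each), a difference of 2.16 for clone T minus clone TB (exact permutation p = 0.1, the smallest possible). That difference was 0.77 with equal list lengths (exact permutation p = 0.1) and 0.75 with clone TB MYC lists limited to the clone T lengths (exact permutation p = 0.4). Leaving out a MYC library moved it between 1.12, without clone TB library 2, and 3.24, without clone T library 2. It was 1.16 without clone TB library 1, and 1.12 and 1.16 had an exact permutation p of 0.3. Lost regions had to be MYC regions of clone T and could not be MYC regions of clone TB, while TR4 is tagged in both. A higher TR4-antibody share in clone T was therefore partly fixed by the class. This comparison was not among the tests adjusted together, and its p-values are unadjusted. The region inside ATAD5, a gene of the PCNA unloading complex (chr17:30848137-30848388), had no MYC peak in clone TB and MYC folds of 41.6, 38.9 and 15.8 in clone T, with 1 TR4-antibody peak of 16.2 in clone TB and TR4-antibody folds of 47.1, 51.5 and 9.54 in clone T. The region nearest CPLANE2, a ciliogenesis gene (chr1:16226929-16227127), had no MYC or TR4-antibody peak in clone TB and MYC folds of 48.1, 32.8 and 10.7 in clone T.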

How the data were processed

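The 24 deposited files hold 1 peak list per library. The submitters' processing notes name MACS2 2.1.4, Bowtie2, SAMtools, Picard and Trimmomatic and the build GRCh38, without roles. Deposited for every peak are a fold (linear ratio), a −log10 q-value and a summit offset in bases (other), all the authors' values; no read counts were used, so depth is unknown. Libraries were grouped by clone and antibody from the labels. Peaks were merged, classed and tested with exact permutation over libraries in Python 3.11.15 (numpy 2.4.6, pandas 2.3.3, scipy 1.17.1), and the steps were tested on simulated lists. Folds rank peaks within a list only. The gene records give no strand, so both ends of a record were used in place of the start site; start sites from the promoter table were an alternative. Named genes were all globin genes, BCL11A, NR2C2, NR2C1, ZBTB7A and LIN28B, up to 3 gained members of each other list by number of HA libraries, and the strongest regions of each class; genes at promoter repeats were chosen after their values were seen. The members and lists were chosen with earlier results of these data known. Alternatives were a −log10 q of at least 5, equal list lengths, peaks in 1 or 3 libraries, summits with 50 bases on both sides, a 500 base window, IgG regions kept, MYC libraries merged alone and each library left out.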

Additional observations from a re-analysis of the deposited data

How the results depend on the processing

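The HA excess over the TR4 antibody in gained regions, in percentage points and as the log2 ratio over common regions, kept its direction under all 22 alternatives and missed the threshold only with 3 libraries a group (49.9 and 2.11 in clone TB, 50.2 and 2.94 for clone B against clone T, exact permutation p = 0.1). Leaving out libraries gave 38.7 to 56.8 points and 1.58 to 2.91 (exact permutation p at most 0.0286). Every alternative still used the clone T MYC peaks to make the classes. The TR4-antibody side therefore stayed partly fixed in all of them. With equal list lengths gained regions were 1534 and their HA share 79.7%; with a peak in at least 1 library 19848 gained and 4235 lost regions and 58.1%; with all 3 libraries 192 lost regions and 58.4%; with summits 69.0%; and with clone TB lists limited to clone T lengths, chosen after seeing the data, 3833 gained, 2854 lost and 90.4%. Leaving out a library gave 7727 to 16866 gained regions, 98 to 1838 lost regions and HA shares of 70.7% to 81.2%. The lost over common difference became -1.06 with equal lists (exact permutation p = 0.00216) and turned to 0.11 with 1 library, 0.44 in clone TB alone and 0.27 with limited clone TB lists, and leaving out MYC libraries gave -0.14 to 0.076 and HA and TR4-antibody libraries -0.31 to 0.059. Peaks at gene ends turned to 1.66 points with equal and 2.14 with limited lists. The share in HA regions of clone B turned to 19.2, 1.11 and 15.8 points with equal lists, 1 library and limited lists, and leaving out libraries gave -4.96 to 0.38. The causes were not tested. The summit difference and peak numbers kept their direction throughout.

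Replicate numbers did not pair the libraries region by region (correlations of same-numbered clone TB and T deviations -0.019, -0.016 and -0.032). Those correlations leave list length out, and the library numbered 3 had the shortest list in every target group. With the number as a replicate block the HA excess stayed at 50.1 points (exact permutation p = 0.00926), the log2 ratio at 2.53, and the lost over common difference at -0.10 (exact permutation p = 0.87); all MYC comparisons of 3 against 3 gave 0.25, the smallest possible. Depth is unknown, so a missing peak is not shown to be absent binding, and the short lists numbered 3 limit what 2 of 3 libraries can show.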

Other observations

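Some sites with both MYC and TR4-antibody peaks were seen in every library of 1 clone and in no MYC or TR4-antibody library of the other; they were looked for after the NOVA1 region had been seen. There were 82 such regions in clone TB and 14 in clone T, against 2416 with peaks in all 12 MYC and TR4-antibody libraries of both clones. A peak in every library was required, so the shortest lists limited these counts. The third MYC and TR4-antibody lists held 4621 and 5602 peaks in clone T and 20928 and 6944 in clone TB. The 82 and the 14 are therefore not counted on equal terms. Of the 82, 60 were HA regions of clone TB, and 16 had no MYC or HA peak in clone B. HA regions of clone TB made up 70.7% of all gained regions and 74.0% of all clone TB MYC regions, so the 60 are near those shares. For the 16, the same share over all gained regions was not counted. After NOVA1, the strongest with no clone B peak were at CSRNP3 (chr2:165574147-165574409), with MYC folds of 17.8, 27.5 and 43.2 in clone TB, and 280781 bases from FAM240C (chr2:242183366-242183521), with 25.7, 16.8 and 39.3. A region inside LIN28B, away from its ends (chr6:104954513-104954812), had MYC folds of 24.2, 21.4 and 29.2 in clone TB, no peak in clone T, and HA peaks in all 3 libraries of clone TB and 1 of clone B. In clone T, the strongest after CPLANE2 lay inside MBD5 (chr2:148451036-148451537), with MYC folds of 31.9, 22.4 and 9.12. Each clone is 1 edited line, so the clone and the tags it carries cannot be told apart.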
